A study of Mus musculus with 4 samples.

Results

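Chloride and transmitter transporters set how a neuron takes up chloride, fills its synaptic vesicles and clears transmitter from the space around it. The 7 genes described here, Slc12a2, Slc12a5, Slc17a6, Slc17a7, Slc32a1, Slc6a11 and Slc1a1, were chosen by name for these roles and matched by the gene name column of the deposited table. All 7 were found among its 20421 genes, each as 1 row. They were read by RNA sequencing in whole-tissue samples labelled brain, from C57BL/6 mice at stage E15, with the genotype labels FOXM1f/+;Nestin-Cre and WT. FOXM1 is a transcription factor of the cell division cycle, the series' title names the human gene, and Nestin-Cre is a recombinase driver active in neural progenitors. The labels do not say how the FOXM1 allele was built. Although 4 samples are listed, 2 for either genotype, read counts come in 1 column per genotype, and a column carries a genotype's name but no sample's. Of the WT samples, 1 is titled with nestin and the other with foxm1, so the WT column may come from an embryo that carries either allele alone, and whether a column is a single embryo or a pool is not stated. Reads counted on genes came to 17856653 in the FOXM1f/+;Nestin-Cre library, against 17543705 in WT.

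Every difference below is between these 2 libraries, with no replicate check and no test over samples. A ratio is FOXM1f/+;Nestin-Cre over WT in read counts scaled to library size (CPM), and its 95% interval is the exact one for 2 Poisson counts, which covers counting error only. In bulk tissue, fewer cells of a type and less RNA per cell cannot be told apart. The libraries also differed in sex-linked genes, with Xist at 9628 against 5 reads and 4 Y-linked genes at 0 reads in the FOXM1f/+;Nestin-Cre library alone. Choroid plexus genes summed to 24.6 against 720 CPM. Of 8 red cell genes, 5 had intervals above 1, led by the embryonic globin Hbb-y at a ratio of 6.29, and 3 had intervals across it. Of 7 microglia markers, 4 had intervals below 1 and none above, with a median log2 ratio of -0.48. The part of these differences in the values below was not tested. Neuronal identity of the tissue was clear in both libraries, with 7399 CPM in the FOXM1f/+;Nestin-Cre and 7954 CPM in the WT library summed over 12 general neuron markers and none of them at 0 reads.

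Slc12a2 encodes NKCC1, which carries sodium, potassium and chloride into the cell, and Slc12a5 encodes KCC2, the neuron-specific potassium-chloride exporter. Immature neurons are known for high NKCC1 and low KCC2, so that GABA can depolarise them, and the balance turns as they mature. Slc17a7 and Slc17a6 encode VGLUT1 and VGLUT2, which load glutamate into synaptic vesicles. VGLUT1 is best known from the cerebral cortex and hippocampus, VGLUT2 from thalamus, midbrain and brainstem. Slc32a1 encodes VGAT, the vesicular carrier of GABA and glycine in inhibitory neurons. At the plasma membrane, Slc6a11 encodes GAT3, a GABA carrier found mostly on astroglia in the mature brain, and Slc1a1 encodes EAAC1, the neuronal carrier of glutamate and cysteine.

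The sequences just upstream of 3 of these genes are shown because they have the lowest ratio (Slc6a11), the highest ratio (Slc17a6) and the lower ratio of the chloride pair (Slc12a5). They are RefSeq promoter windows on GRCm38.p6, plus strand, 5′ to 3′, and hold only bases that lie before both the RefSeq start and the start of the gene in the deposited table. Capitals mark a GC box, GGGCGG or its reverse complement CCGCCC.
Slc6a11, chr6:114130991-114131240: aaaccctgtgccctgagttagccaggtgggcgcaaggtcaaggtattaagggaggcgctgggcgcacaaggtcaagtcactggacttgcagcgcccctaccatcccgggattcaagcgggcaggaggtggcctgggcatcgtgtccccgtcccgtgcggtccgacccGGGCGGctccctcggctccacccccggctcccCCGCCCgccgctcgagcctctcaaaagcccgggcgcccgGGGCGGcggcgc
Slc12a5, chr2:164960596-164960801: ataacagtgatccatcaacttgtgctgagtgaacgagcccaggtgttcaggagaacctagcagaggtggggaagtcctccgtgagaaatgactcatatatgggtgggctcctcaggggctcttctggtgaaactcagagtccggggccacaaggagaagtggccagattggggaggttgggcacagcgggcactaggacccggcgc
Slc17a6, chr7:51621580-51621829: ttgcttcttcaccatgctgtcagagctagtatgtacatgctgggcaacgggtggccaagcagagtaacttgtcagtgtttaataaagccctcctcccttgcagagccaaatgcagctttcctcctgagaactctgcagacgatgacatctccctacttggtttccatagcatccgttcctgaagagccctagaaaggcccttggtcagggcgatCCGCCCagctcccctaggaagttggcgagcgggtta
Windows were read for 6 of the 7 genes, 1 each for Slc17a7, Slc32a1, Slc6a11 and Slc1a1 and 2 each for Slc12a5 and Slc17a6. None was read for Slc12a2, so the matches below say nothing of that gene. No window of these 6 genes held GTAAACA, the core that forkhead factors bind, on either strand of the 250 bases before the start. Nor did any hold TTTGAA or TTCGAA, the forms of the cell cycle homology region through which FOXM1 partners bind. Over 32817 RefSeq windows of that length, 3.16% held the forkhead core, 16.0% held TTTGAA and 1.33% held TTCGAA. A missing match says only that these letters are not in these windows. A GC box was found in the windows of Slc17a7, Slc6a11 and Slc1a1, in the first of Slc17a6 and the second of Slc12a5, and in 32.7% of all windows. The Slc6a11 window was 71.2% G and C and held 25 CpG sites, against 53.2% and 7 in the first Slc17a6 window and medians of 52.4% and 6 over all windows. The Slc1a1 window, of a gene whose interval spanned 1, had 70.4% and 27. Slc32a1 had 62.4% and 12, and Slc17a7 61.2% and 9.

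All 7 genes had a mean of at least 1 CPM, the expression minimum that 14557 genes of the table passed. Their ratios ran from 0.67 for Slc6a11 to 1.15 for Slc17a6. None was 1.5-fold apart in either direction, a size that 7.77% of the 14557 genes reached, 2.53% higher and 5.23% lower. Slc6a11 lay just inside that fold, at 1.49-fold lower. Counting intervals lay wholly above 1 for Slc17a6 and Slc17a7, wholly below 1 for Slc12a5 and Slc6a11, and across 1 for Slc12a2, Slc32a1 and Slc1a1. That is 4 of 7 off 1, where 35.7% of all genes tested had such an interval, 16.5% above and 19.2% below. These shares are not matched for depth: more reads narrow an interval, and the 7 genes had 312 to 2012 reads in a library. The genes tested go down to a mean of 1 CPM. The median log2 ratio of the 7 genes was -0.07, beside -0.01 over all genes tested.

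**Figure D1:**
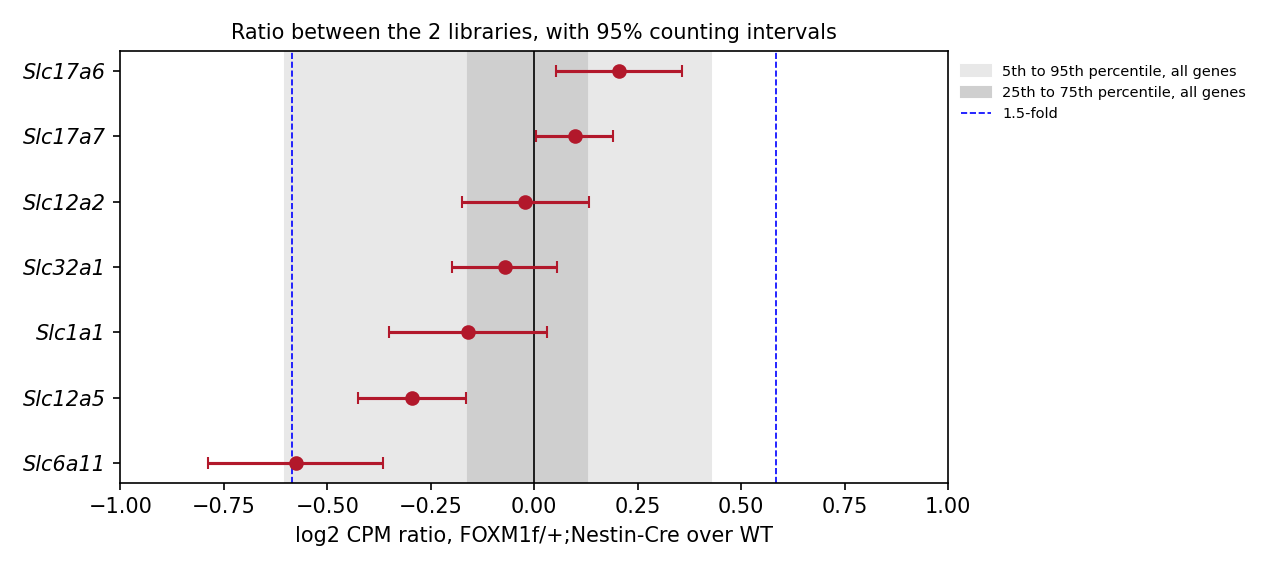
Log2 CPM ratio of the 7 transporter genes, FOXM1f/+;Nestin-Cre over WT (horizontal axis), as points with 95% counting intervals. Grey bands span the middle 50% and 90% of the 14557 genes tested and dashed lines mark 1.5-fold; Slc6a11 at -0.58 and Slc12a5 at -0.30 lie lowest and Slc17a6 at 0.20 highest.

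Among the chloride carriers, the exporter was lower in the FOXM1f/+;Nestin-Cre library and the interval of the importer spanned 1. Slc12a5 (ENSMUSG00000017740; chromosome 2, 164960802 to 164999731, GRCm38) had 890 reads in the FOXM1f/+;Nestin-Cre library and 1073 in the WT library, or 49.8 against 61.1 CPM. Its ratio was 0.81 (0.74 to 0.89), which is 1.23-fold lower, and 13.8% of all genes tested had a lower ratio. Slc12a2 (ENSMUSG00000024597; chromosome 18, 57878678 to 57946821) had 697 against 695 reads, or 39.0 against 39.6 CPM. Its ratio was 0.99 (0.89 to 1.10), so a difference of the size seen for Slc12a5 lay outside its interval.

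Read against each other, Slc12a5 had 1.28 reads for each read of Slc12a2 in the FOXM1f/+;Nestin-Cre library and 1.54 in the WT library. The ratio of these was 0.83 (0.72 to 0.95, exact conditional interval of the odds ratio), or 1.21-fold lower in the FOXM1f/+;Nestin-Cre library. Gene length and library size cancel in this value. It is taken over the whole tissue and does not measure a balance within neurons. Per kilobase of exon and on the CPM scale (RPKM), the level of the exporter was 1.87 times that of the importer in the FOXM1f/+;Nestin-Cre and 2.26 times in the WT library. KCC2 mRNA was thus the more abundant of the pair, per length, in both libraries. Slc12a5 has separate RefSeq starts that give different first exons, and counts per gene do not separate them.

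General neuron markers were lower alongside Slc12a5, with 9 of 12 counting intervals below 1, 1 above and 2 across it, and a median log2 ratio of -0.11. Mapt, the microtubule-binding protein tau, had 827 against 1042 CPM. With both libraries scaled to the summed reads of the 12 markers, the log2 ratio of Slc12a5 was -0.19 (-0.32 to -0.06), against -0.30 in CPM. Slc12a2 is also made by the choroid plexus, where Ttr had 177 reads in the FOXM1f/+;Nestin-Cre and 11255 in the WT library. Of the plexus markers, 5 of 6 tested had intervals below 1 while that of Slc12a2 spanned it. Radial glia markers, from cells that also hold NKCC1, had 8 of 10 intervals above 1 and none below. The part of any of these cells in the values of Slc12a5 and Slc12a2 was not tested.

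In the rest of the cation-chloride cotransporter family, 1 gene had an interval off 1. Of 7 further genes, 6 were in the table and 4 passed the expression minimum, with 1 interval below 1 and 3 across it. The median log2 ratio was -0.12. Slc12a4, the widely expressed KCC1, had 129 against 174 reads, making it 1.37-fold lower (1.09 to 1.74). Slc12a7, the exporter KCC4, had 778 against 711, a ratio of 1.08 (0.97 to 1.19). The kidney carrier Slc12a3 had 1 read in each library. Slc12a9, an orphan member of the family, had 556 against 602 reads, a ratio of 0.91 (0.81 to 1.02). Per length, Slc12a5 was above Slc12a4, Slc12a7, Slc12a8 and Slc12a9 in both libraries, the nearest being Slc12a9 at 6.20 RPKM in the FOXM1f/+;Nestin-Cre and 6.83 RPKM in the WT library.

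Kinases and pumps that act on chloride transport were mixed. Of 13 regulators and other anion carriers, 2 had intervals above 1, 4 below and 7 across it, with a median of -0.05. Stk39, the SPAK kinase that activates NKCC1 and restrains the exporters, had 950 against 715 reads and was 1.31-fold higher (1.18 to 1.44). Its upstream kinase Wnk2 had a ratio of 0.89 (0.85 to 0.93). Wnk4 had 41 against 75 reads, 1.86-fold lower (1.26 to 2.79), the only gene of this list beyond 1.5-fold. Wnk1 and Wnk3 had intervals across 1, at ratios of 1.03 (0.97 to 1.10) and 0.92 (0.82 to 1.03). Ckb, the brain creatine kinase, which is known to bind KCC2, was 1.15-fold higher (1.13 to 1.18), and Slc4a3, an anion exchanger, was 1.21-fold lower (1.12 to 1.30). Neto2, an auxiliary protein of KCC2 and kainate receptors, had 1864 against 1767 reads, a ratio of 1.04 (0.97 to 1.11).

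The sodium pump, whose gradients drive NKCC1 and KCC2, had 3 of 6 subunits with intervals below 1 and none above, with a median of -0.14. Of all genes tested, 19.2% had an interval below 1. The beta subunits Atp1b1 and Atp1b2 were 1.43-fold (1.30 to 1.57) and 1.30-fold (1.19 to 1.42) lower, while Atp1b3 had 1654 against 1619 reads, a ratio of 1.004 (0.94 to 1.08).

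Both vesicular glutamate transporters were slightly higher in the FOXM1f/+;Nestin-Cre library. Slc17a6 (ENSMUSG00000030500; chromosome 7, 51622006 to 51671119) had 768 against 655 reads, or 43.0 against 37.3 CPM, and was 1.15-fold higher (1.04 to 1.28). Of all genes tested, 84.2% had a lower ratio. Slc17a7 (ENSMUSG00000070570; chromosome 7, 45163949 to 45176142) had 2012 against 1848 reads, or 113 against 105 CPM, and was 1.07-fold higher (1.004 to 1.14). The lower bound of its log2 ratio was 0.005, so the interval only just cleared a ratio of 1. These were the opposite of the sign of most general neuron markers, 10 of 12 of which had ratios below 1.

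The balance of the pair could not be separated between the libraries at this depth. Slc17a7 had 2.62 reads per read of Slc17a6 in the FOXM1f/+;Nestin-Cre and 2.82 in the WT library, and the ratio of these was 0.93 (0.82 to 1.05). VGLUT1 mRNA made up 72.1% and VGLUT2 27.5% of the summed RPKM of the class in the FOXM1f/+;Nestin-Cre library, against 73.3% and 25.9% in the WT library. Slc17a8, VGLUT3, had 11 against 18 reads and was below the expression minimum.

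Markers of the regions and neurons known for these carriers were measured in the same libraries. Of 8 diencephalon markers, 6 passed the minimum, with 1 interval above 1 (Lhx9, 486 against 281 reads), 1 below (Rora, 34 against 62) and 4 across it. The summed level of the 8 was 53.0 CPM in the FOXM1f/+;Nestin-Cre and 41.7 CPM in the WT library, with none at 0 reads. That of the 7 without Lhx9 was 25.8 against 25.7 CPM, but Lhx9 was left out after its value was seen. Of the 8 midbrain and hindbrain markers, Lmx1b was the only one in the table, with 5 against 1 reads; it was picked out after its value was seen. Cortical glutamatergic neuron markers had 5 of 9 intervals below 1, 4 across it and none above. Ratios were above 1 in 3 of the 9 and below 1 in 6, with Cux2, a homeobox gene of upper layers, 1.27-fold lower (1.18 to 1.35). Their median log2 ratio was -0.06, and 0.04 when scaled to the general neuron markers. The part of any of these in the values of Slc17a6 and Slc17a7 was not tested.

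**Figure D2:**
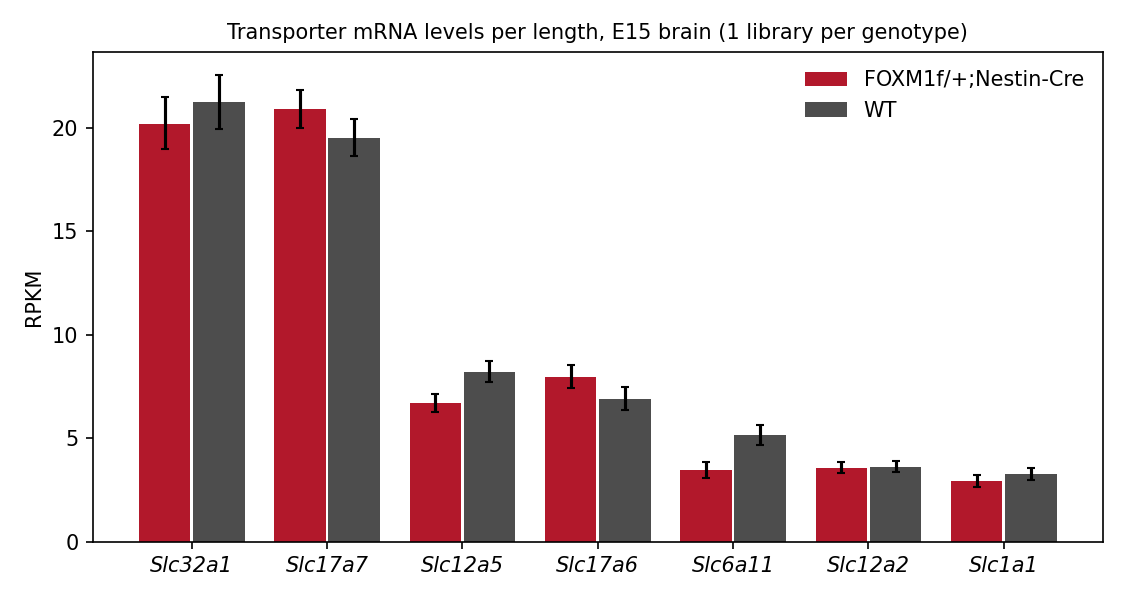
RPKM (vertical axis) of each transporter gene in the FOXM1f/+;Nestin-Cre (red) and WT (grey) library; bars are single libraries and error bars are exact 95% Poisson intervals of the read count. Slc32a1 and Slc17a7 stand near 20 RPKM in both, Slc12a5 and Slc17a6 between 6.69 and 8.21, and the other genes lower.

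Slc32a1, the marker of inhibitory vesicles, had an interval that spanned 1. Slc32a1 (ENSMUSG00000037771; chromosome 2, 158610767 to 158615748) had 1009 against 1042 reads, or 56.5 against 59.4 CPM, with a ratio of 0.95 (0.87 to 1.04). GENCODE places an antisense gene, Gm14205, over 697 of its exonic bases, and since the strand setting of the counting is not given, its reads cannot be told from those of Slc32a1. The enzymes that make GABA stood on either side of it. Gad1 had 1611 against 1846 reads, 1.17-fold lower (1.09 to 1.25), and Gad2 had 1977 against 1838, a ratio of 1.06 (0.99 to 1.13). Over the 11 markers of GABAergic interneurons and the ganglionic eminence, 4 intervals were above 1, 3 below and 4 across it, and the summed level was 1364 against 1373 CPM. Those above were Dlx2 at a ratio of 1.13 (1.07 to 1.18), Dlx5 at 1.10 (1.02 to 1.18), Dlx6 at 1.28 (1.10 to 1.49) and Gsx2 at 1.25 (1.03 to 1.53). Those below were Gad1, Lhx6 at 0.90 (0.84 to 0.95) and Sst at 0.92 (0.87 to 0.97). All markers of this list off 1 are thus named, a choice made after the values were seen.

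No other vesicular carrier had an interval off 1. Of 6, 4 passed the minimum and all 4 intervals spanned 1, with a median of 0.03, which was -0.41 without the minimum. Slc18a2, the vesicular monoamine carrier, had 546 against 476 reads, a ratio of 1.13 (0.99 to 1.28). Slc17a5, the lysosomal sialic acid carrier sialin, had 283 against 296 reads, a ratio of 0.94 (0.80 to 1.11). The acetylcholine carrier Slc18a3 had 27 against 24 reads.

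Slc6a11 had the largest difference of the 7 genes. Slc6a11 (ENSMUSG00000030307; chromosome 6, 114131241 to 114249952) had 312 reads in the FOXM1f/+;Nestin-Cre library and 457 in the WT library, or 17.5 against 26.0 CPM. It was 1.49-fold lower (1.29 to 1.73), and 5.41% of all genes tested had a lower ratio. Slc6a13, GAT2, a carrier of meninges and liver, had 6 against 15 reads. Of 7 markers of pericytes and meninges, 6 passed the minimum, with 4 intervals below 1 and none above and a median of -0.47, and the collagen Col1a2 had 74 against 185 reads. The part of these cells in the value of Slc6a13 was not tested.

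Glial markers moved in both directions beside Slc6a11. Of 8 astroglia markers, 6 passed the minimum, with 3 intervals below 1, 1 above and 2 across it, with a median log2 ratio of -0.28. The summed level of the 8 was 366 CPM in the FOXM1f/+;Nestin-Cre and 376 CPM in the WT library. That of the 7 without Aldoc was 150.4 against 193 CPM, but Aldoc was left out after its value was seen. Clu, a secreted chaperone, was 1.56-fold lower (1.40 to 1.73), and so was the lipid carrier Apoe, by 1.32-fold (1.22 to 1.42), whereas the aldolase Aldoc was 1.18-fold higher (1.13 to 1.24). The water channel Aqp4, a defining marker of mature astrocytes, had 10 against 17 reads. Of 6 oligodendrocyte precursor markers, 4 had intervals below 1 and none above, at 68.6 against 87.9 CPM in sum, with no marker at 0 reads. Pdgfra, the growth factor receptor of these cells, had 87 against 195 reads. Olig2, with the most reads of this list, had 587 against 591, a ratio of 0.98 (0.87 to 1.10). The part of glial cell content in the value of Slc6a11 was not tested.

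The other GABA, glycine, taurine and creatine carriers had ratios below 1 in all 4 genes that passed the minimum, of 7 listed and 5 in the table. Of these, 2 had intervals below 1, among them the taurine carrier Slc6a6, 1.18-fold lower (1.11 to 1.25). The creatine carrier Slc6a8 and the glycine carrier Slc6a9 had ratios of 0.97 (0.90 to 1.04) and 0.86 (0.70 to 1.06). The list's median log2 ratio was -0.17, and -0.06 when scaled to the general neuron markers.

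Slc1a1, the neuronal glutamate carrier, was not separable between the libraries. Slc1a1 (ENSMUSG00000024935; chromosome 19, 28835049 to 28913960) had 432 against 474 reads, or 24.2 against 27.0 CPM, with a ratio of 0.90 (0.78 to 1.02). GENCODE places the protein-coding gene 4430402I18Rik on the opposite strand over 2631 of its exonic bases. That gene had 26 against 35 reads, and reads in the shared bases cannot be assigned by strand here. The glial glutamate carriers had intervals across 1, Slc1a3 (GLAST) at 1621 against 1588 reads, a ratio of 1.003 (0.94 to 1.08), and Slc1a2 (GLT1) at 1213 against 1154, a ratio of 1.03 (0.95 to 1.12). By RPKM, Slc1a3 made up 51.6% of the glutamate carriers in both libraries, and Slc1a1 14.2% in the FOXM1f/+;Nestin-Cre and 15.9% in the WT library.

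Of the 5 other genes of that family in the table, 1 had an interval off 1. Slc1a5, the neutral amino acid carrier ASCT2 that brings glutamine into dividing cells, had 440 against 248 reads and was 1.74-fold higher (1.49 to 2.05), beyond any of the 7 transporters described above. Among 12 glutamine carriers and glutamate or GABA enzymes, 1 interval was above 1, 3 were below and 8 across it. The neuronal glutamine carrier Slc38a1 was 1.07-fold higher (1.02 to 1.12), and the astroglial glutamine carrier Slc38a3 was 1.20-fold lower (1.07 to 1.35). Glul, glutamine synthetase of astroglia, had 2728 against 2596 reads, a ratio of 1.03 (0.98 to 1.09). Monoamine, choline and nucleoside carriers were mostly at a few reads. Slc29a4, a membrane carrier of monoamines, was 1.18-fold lower (1.13 to 1.25), and Slc29a1, a nucleoside carrier, had 391 against 410 reads.

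**Figure D3:**
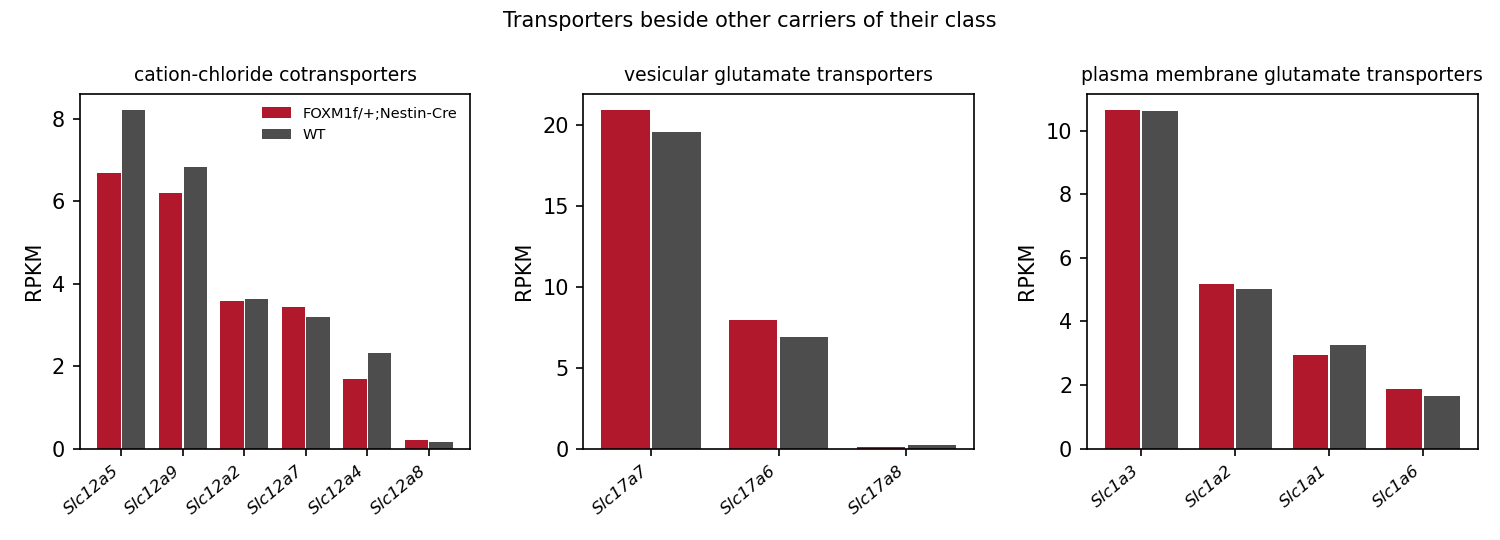
RPKM (vertical axes) of genes of 3 transporter classes in the FOXM1f/+;Nestin-Cre (red) and WT (grey) library, 1 library each and no error bars. Of the genes drawn, Slc12a5, Slc17a7 and Slc1a3 stand highest in their classes in both libraries.

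**Figure D4:**
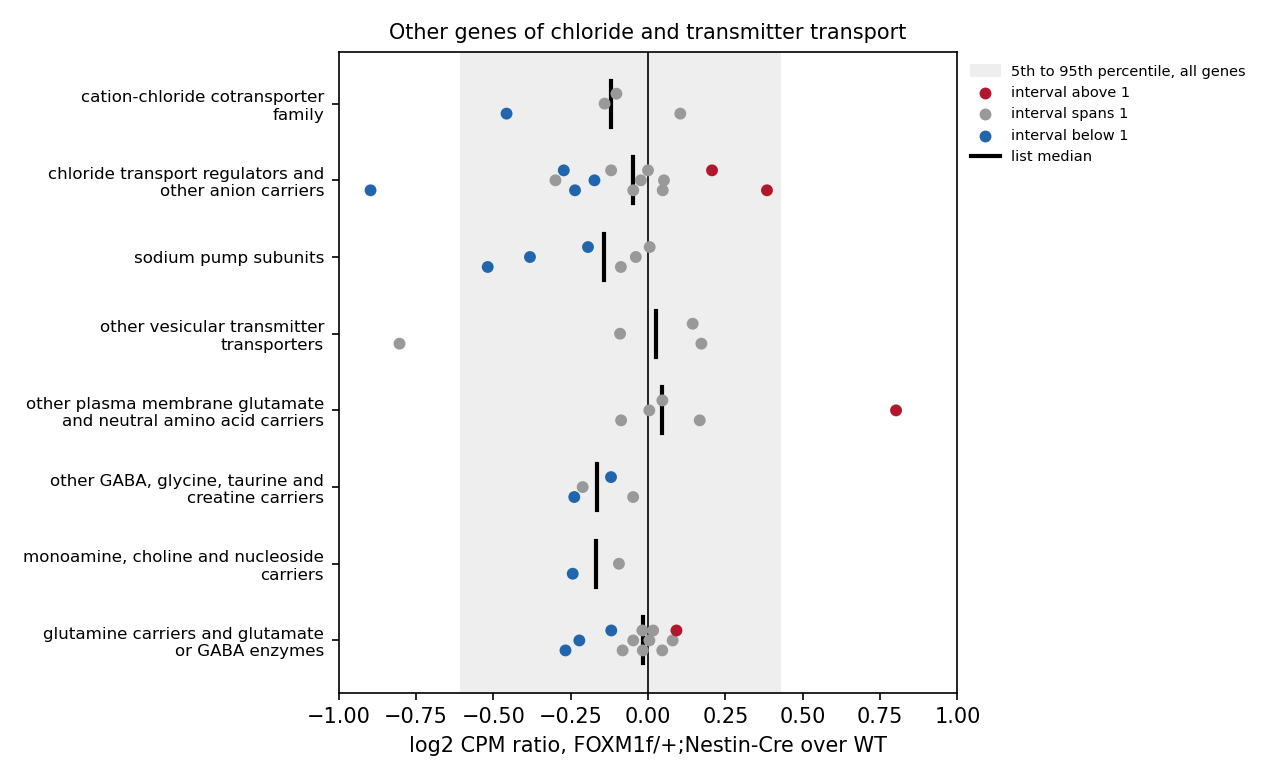
Log2 CPM ratio, FOXM1f/+;Nestin-Cre over WT (horizontal axis), of the tested genes of 8 transport lists; a point is a gene, coloured by whether its 95% counting interval lies above, across or below a ratio of 1, and bars are list medians. Most points lie within the grey band of all genes, with Slc1a5 at 0.80 to its right and Wnk4 at -0.90 and Slc17a9 at -0.80 to its left.

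Per length, the 7 genes fell into like tiers in both libraries, with local changes of order. In the FOXM1f/+;Nestin-Cre library the order was Slc17a7 (20.9 RPKM), Slc32a1 (20.2), Slc17a6 (7.96), Slc12a5 (6.69), Slc12a2 (3.57), Slc6a11 (3.46) and Slc1a1 (2.93). In the WT library it was Slc32a1 (21.2 RPKM), Slc17a7 (19.5), Slc12a5 (8.21), Slc17a6 (6.91), Slc6a11 (5.16), Slc12a2 (3.63) and Slc1a1 (3.27). The Poisson intervals of Slc17a7 and Slc32a1 overlapped in each library, as did those of Slc12a2 and Slc1a1 in the WT library and, in the FOXM1f/+;Nestin-Cre library, those of Slc6a11 with Slc12a2 and with Slc1a1. Slc12a5 and Slc17a6 changed places with intervals that did not overlap in either library, 6.26 to 7.15 against 7.41 to 8.55 RPKM in the FOXM1f/+;Nestin-Cre library and 7.73 to 8.72 against 6.39 to 7.46 RPKM in the WT library. Slc6a11 stood clear of Slc12a2 in the WT library, at 4.70 to 5.65 against 3.36 to 3.91 RPKM. These orders also rest on the exon lengths used, which the Poisson intervals do not cover. In CPM, Slc12a5 was above Slc17a6 in both libraries, at 49.8 against 43.0 in FOXM1f/+;Nestin-Cre and 61.1 against 37.3 in WT. Slc6a11 was below Slc12a2 in both, at 17.5 against 39.0 CPM in FOXM1f/+;Nestin-Cre and 26.0 against 39.6 CPM in WT. The spread between embryos is not measured, so these orders describe the libraries.

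**Figure D5:**
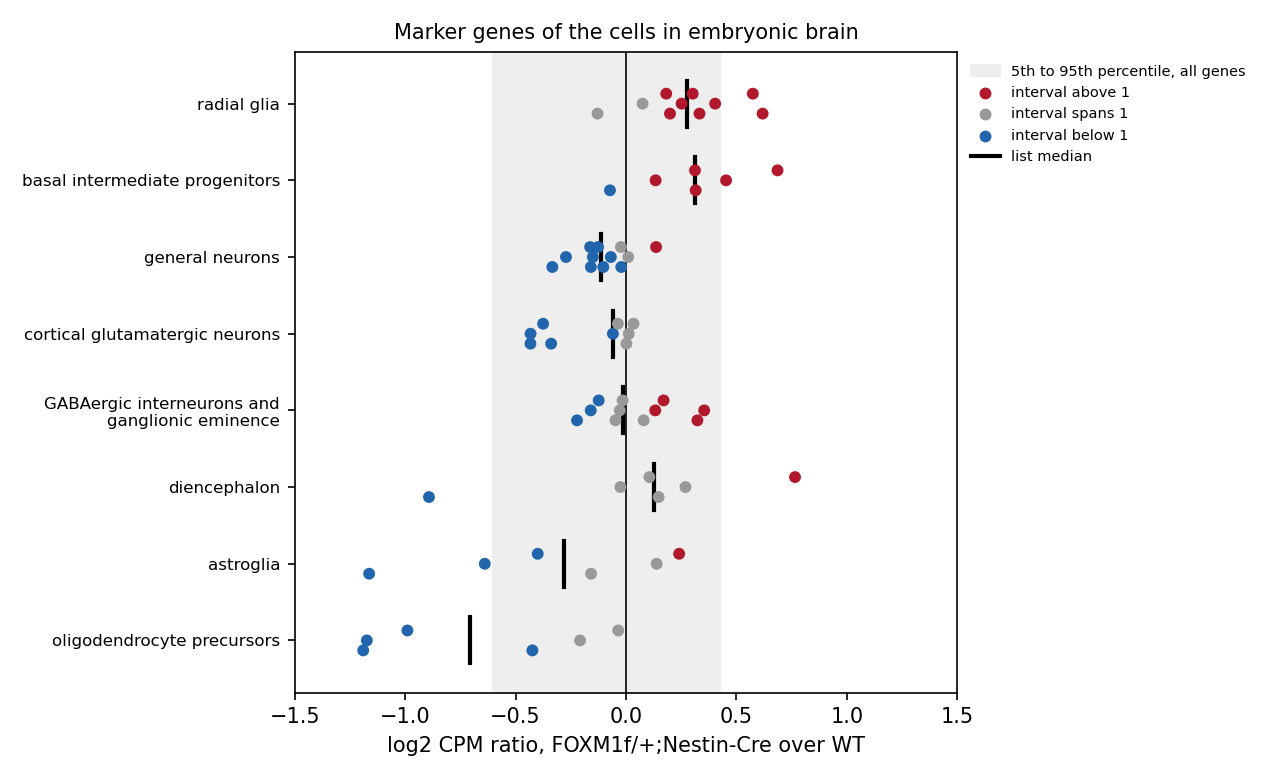
Log2 CPM ratio, FOXM1f/+;Nestin-Cre over WT (horizontal axis), of tested marker genes of 8 cell types or regions; a point is a gene, coloured by its 95% counting interval, and bars are list medians. Radial glia (median 0.28) and basal progenitor (0.31) markers lie mostly to the right, general neuron (-0.11), astroglia (-0.28) and oligodendrocyte precursor (-0.71) markers mostly to the left.

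The authors marked none of the 7 genes as significant, where 6.27% of the genes tested here carried their mark. The smallest fold they mark is 1.5, which none of the 7 genes reached. In the authors' deposited table, the adjusted p-values were 7.2e-07 for Slc6a11 and 6.51e-05 for Slc12a5, and the fold changes 0.671 and 0.815. Those p-values compare 1 column with 1 column and hold no spread between embryos.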

How the data were processed

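Total RNA of embryonic brain was extracted with Trizol, per the labels' protocols. Bowtie2 2.2.3, TopHat2 2.0.12, HTSeq 0.6.0 and the genome mm9 are named in the submitters' processing notes, while annotation and strand setting are not given there. Coordinates in the table match GRCm38: 91.7% of 20388 identifiers had the start and end of GENCODE M21. The authors deposited raw read counts and, per the file headers, normalized values, which are CPM with 0 reads entered as 0.5. The deposited fold change is a ratio of these, the deposited log2 column its logarithm, and the deposited p-values come from a test that is not named.

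Ratios used the authors' CPM, over genes averaging 1 CPM or more, with exact conditional (Clopper-Pearson) 95% intervals. RPKM used the union exon length of GENCODE M21. The series' design speaks of triplicate profiles, but with 1 column per genotype no test over samples was run. Intervals cover counting error only, and PCR copies are not independent molecules. The genes and lists were chosen with earlier results of these data known. The rule named all 7 genes, and from each transport list up to 4 genes, from a marker list up to 3, whose interval lay off 1, by size over counting error. Where no interval did, 2 genes of highest CPM were named. Some genes the rule takes are not reported here, and further genes are named to complete a class or a contrast, chosen after their values were seen. Alternatives were TMM and RLE scaling (edgeR 4.0.16, R 4.3.3), totals without some gene groups, other minimums and folds, and, added after seeing the data, scaling to neuron markers. Python 3.11.15, NumPy 2.4.6, pandas 2.3.3, SciPy 1.17.1 and Matplotlib 3.10.9 were used. The intervals were tested on simulated Poisson counts, the model they assume, so that test says nothing of spread between embryos or of PCR copies.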

Additional observations from a re-analysis of the deposited data

How the results depend on the processing

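The 4 intervals that lay off 1 among the 7 transporters kept their direction under TMM, RLE, the reduced totals, the table's own column totals and the neuron marker scaling. Under the first 4 of these, the log2 ratio of Slc6a11 ran from -0.58 to -0.55, that of Slc12a5 from -0.30 to -0.27, that of Slc17a6 from 0.20 to 0.23 and that of Slc17a7 from 0.10 to 0.12. Slc12a2, whose interval spans 1, reached 0.00 at the upper end. Scaling to the general neuron markers moved every log2 ratio by 0.10. It put Slc17a7 at 0.20, Slc32a1 at 0.03, the GABA and glycine carrier list at -0.061 and the glutamine and enzyme list at 0.087, against -0.02 in CPM. The number of genes at least 1.5-fold higher and lower, 369 and 762, was 604 and 567 under that shift, 1893 and 2921 without an expression minimum, 34 and 86 at a minimum mean of 10 CPM, 76 and 266 at 2-fold, and 2398 and 2801 by the counting interval. Adding 0.5 read to every count left both read ratios of gene pairs inside their intervals, but at these read counts it could hardly move them. No paired analysis was possible because the columns carry no replicate number, and leaving out a replicate was not run for the same reason. Depth limits the genes below about 100 reads, such as Slc17a8 and Slc6a13.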

Other observations

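Slc6a4, the serotonin carrier, lay below the expression minimum but had 10 reads in the FOXM1f/+;Nestin-Cre library and 1 in the WT library, a ratio of 9.83 with a counting interval of 1.40 to 426. Beside it, the acetylcholine precursor carrier Slc5a7 had 15 against 9 reads and the dopamine carrier Slc6a3 1 against 3 reads. Both of those intervals spanned 1. These genes were picked out after their values were seen.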
